A study of Homo sapiens with 6 samples.

Results

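The genes described here were INHBA and its surrounding activin family in OVCAR3 cells, a human ovarian cancer cell line. They comprised the ligand subunits INHBA, INHBB and INHA, the secreted activin binders FST and FSTL3, the receptors ACVR1, ACVR1B, ACVR2A and ACVR2B, and the pseudoreceptor BAMBI. These 10 genes were found by their names among the 19973 genes of the deposited table. They were chosen from read counts in these same libraries, with the difference in INHBA already known, and the values of the 10 genes between groups are therefore given as a description. Where such genes are counted against a threshold of the fit over all genes, the count is not evidence of a change.

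Activins are secreted dimers of beta subunits, with INHBA encoding the beta A chain and INHBB the beta B chain. The same beta chains joined to the alpha chain encoded by INHA form inhibins, which oppose activin. Activin binds the type II receptors ACVR2A or ACVR2B, which activate the type I receptor ACVR1B and through it SMAD2 and SMAD3. Follistatin (FST) and its relative FSTL3 bind activin outside the cell and keep it from its receptors. The family is best known in the ovary from granulosa cells, whose inhibin acts on the release of follicle-stimulating hormone by the pituitary.

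RNA-seq was performed to ask how knockdown of NUF2, a component of the kinetochore complex that holds spindle microtubules, changed gene expression. OVCAR3 cells received a vector with a control short hairpin (shNC group, 3 libraries) or a hairpin against NUF2 (shNUF2 group, 3 libraries), and stable lines of both groups were selected with puromycin, so that vector and antibiotic were shared. The labels give the genotype as WT in the shNC group and NUF2 knockdown in the shNUF2 group, and one hairpin sequence is listed for NUF2. The hairpins were carried by a plasmid with a U6 promoter and a puromycin resistance cassette, delivered with a lipid reagent. Whether the lines were single clones was not stated. Whether the 3 libraries of a group came from separate cultures was not stated, so p-values measure the spread between these libraries, which may be technical.

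Total read counts ranged from 14115009 to 16995452 with shNC and from 13057534 to 15227460 with shNUF2. NUF2 itself was covered by 903, 1096 and 1092 reads in the shNC libraries and by 281, 290 and 384 in the shNUF2 libraries, a log2 fold change of -1.51 ± 0.08 (SE, adjusted p = 2.17e-15, edgeR quasi-likelihood test, Benjamini-Hochberg adjusted), and the groups did not overlap. Of the epithelial and ovarian carcinoma markers, KRT8 (4967 to 10296 reads), KRT18, MUC16 and PAX8 were read in every library, EPCAM (44 to 91 reads) and CDH1 (9 to 33 reads) were low, and WT1 (0 to 7 reads) and KRT19 (1 to 8 reads) were near 0. Low EPCAM, CDH1 and KRT19 go against the label of an epithelial cancer line, so OVCAR3 is used here as the name the labels give, and the identity of the line was not tested. The summed level of these 8 markers was 496 to 527 CPM (counts relative to library size) with shNC and 875 to 931 CPM with shNUF2, most of it KRT8 at 337 and 692 CPM. The list did not move as one, since MUC16 fell from 48.6 to 28.9 CPM (log2 fold change -0.75 ± 0.09 SE, adjusted p = 1.90e-08, edgeR), and CDH1 was at 1.38 and 0.843 CPM (adjusted p = 0.118, edgeR). The granulosa cell markers FSHR (0 reads in all 6 libraries), CYP19A1 (at most 6 reads) and NR5A1 (at most 5 reads) were at or near 0, while FOXL2 had 155 to 185 reads with shNC and 63 to 79 with shNUF2. AMH had 42 to 67 reads over all libraries, and AMHR2, counted 2, 2 and 0 times with shNC and 7, 13 and 12 times with shNUF2, was low in both groups and lay on the other side from FOXL2. The granulosa list of 6 genes summed to 13.8 to 14.6 CPM with shNC and 9.11 to 11.4 CPM with shNUF2. Summed levels of fibroblast markers were 84.0 to 90.6 and 69.0 to 76.3 CPM, those of leukocyte markers 1.27 to 2.50 and 3.86 to 6.62 CPM, and those of endothelial markers 1.75 to 3.38 and 3.41 to 5.001 CPM, with COL1A2, LUM, CD3E and KDR at 2 reads or fewer in every library. These lists also split. Of the fibroblast list COL1A1 made up most and fell from 81.7 to 62.4 CPM, while DCN rose from 3.66 to 8.48 CPM (log2 fold change 1.22 ± 0.20 SE, adjusted p = 7.0e-06, edgeR) and COL3A1 had 0 to 2 reads with shNC and 5 to 15 with shNUF2. Of the endothelial list CDH5 had 1 to 4 reads with shNC and 15 to 27 with shNUF2, and PECAM1 stood at 2.53 and 2.50 CPM. The part of these shifts in the values below was not tested.

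Sequences are shown for the comparisons that follow. The first is the site in NUF2 that the hairpin targets, as it defines the knockdown, and the capitals mark the 7 bases that pair with the seed of the guide (bases 2 to 8). It lies in NUF2-201 on chr1:163328272-163328292 of GRCh38, plus strand.
shNUF2 target: cttcttaccattcAGCAATTt
The longest run of this target found in any annotated transcript of the 10 genes was 7 to 9 bases. The seed site AGCAATT occurred in the longest annotated 3′ UTR of 1 of the 10 genes, ACVR2A, against 12.8% of 19132 genes with such a UTR. The other sequences are from promoter windows, which RefSeq gives on GRCh38.p14 as 250 bases before to 50 bases after a start. They are those of the gene with the largest difference between the groups, INHBA, and of the gene with the highest level, FSTL3, each without the bases that fall in annotated exons. Capitals mark motifs that were found.
INHBA promoter: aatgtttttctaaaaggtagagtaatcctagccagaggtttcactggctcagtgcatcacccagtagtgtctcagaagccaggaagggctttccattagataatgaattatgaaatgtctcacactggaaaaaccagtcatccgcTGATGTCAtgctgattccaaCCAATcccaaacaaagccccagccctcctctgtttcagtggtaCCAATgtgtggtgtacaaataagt
FSTL3 promoter: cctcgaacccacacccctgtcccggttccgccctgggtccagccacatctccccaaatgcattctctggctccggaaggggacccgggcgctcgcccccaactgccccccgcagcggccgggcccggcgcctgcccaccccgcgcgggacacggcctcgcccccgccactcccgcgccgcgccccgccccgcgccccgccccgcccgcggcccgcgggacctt
The INHBA stretch is chr7:41703109-41703340 on the minus strand, 232 bases with a GC content of 44.0%, and lies within the bounds of the gene as deposited. The FSTL3 stretch is chr19:676142-676364 on the plus strand, 223 bases with a GC content of 80.3%. The median GC content of all 35116 windows was 58.7%.

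Among the 13 windows of the 10 genes, a CRE-type site (TGANGTCA on either strand) was found only in that of INHBA, with its first base 105 bases before the start, and in 7.72% of all windows. The CCAAT box (CCAAT, either strand) was found for INHBA, FST, ACVR1 and BAMBI and in 34.6% of all windows. An AP-1 site (TGANTCA, either strand) was found for FST, INHA and ACVR1 and in 7.71% of all windows. The short SMAD site CAGAC, either strand, was found for 6 of the 10 genes, in 7 of their 13 windows, and in 45.3% of all windows. The letters TATAAA on the gene's strand were found for INHBA, from 11 bases before the start, and in 7.33% of all windows. These motif searches could overlap one another, and a match describes letters and not binding.

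INHBA (ENSG00000122641, chr7:41667168-41705834, minus strand) was the member with the largest difference. It was covered by 34, 36 and 41 reads in the shNC libraries and by 1604, 1375 and 1542 in the shNUF2 libraries. Every library with shNUF2 lay far above every library with shNC. The spread in CPM was 7.99% of the mean with shNUF2, where counting error alone gives 2.58%. With shNC it was 3.33%, below the 16.4% that counting error alone gives, so the small spread there is not a measure of precision. As a level per gene length, the FPKM (reads scaled to gene length and library size) of INHBA were 0.286 ± 0.00824 with shNC and 12.99 ± 0.936 with shNUF2 (SD, n = 3). The CPM ratio was 46.6, and the log2 fold change over the fit of all genes was 5.54 ± 0.10 (SE), the 33rd highest of the 12874 genes tested. In RNA from a whole culture, more cells with a transcript and more of that transcript per cell cannot be told apart. The antisense gene INHBA-AS1 overlaps INHBA by 11919 bases on the other strand and was not analysed here.

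INHBB, the beta B subunit (ENSG00000163083, chr2:120346136-120351803, plus strand), went the other way. It was covered by 204, 183 and 243 reads in the shNC libraries and by 136, 115 and 130 in the shNUF2 libraries. All 3 libraries with shNUF2 were below all 3 with shNC, also after scaling for depth. Its FPKM was 4.20 ± 0.491 with shNC and 2.83 ± 0.217 with shNUF2 (SD, n = 3), and its log2 fold change was -0.53 ± 0.13 (SE).

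INHA, the alpha subunit (ENSG00000123999, chr2:219569162-219575711, plus strand), was covered by 47, 52 and 53 reads in the shNC libraries and by 20, 41 and 26 in the shNUF2 libraries. In FPKM these were 2.04, 2.02 and 1.91 against 0.886, 1.92 and 1.04, so that the second library with shNUF2 reached into the range of shNC. The spread of INHA with shNUF2 was 42.5% of the mean, where counting error alone gives 18.6%. Its log2 fold change was -0.61 ± 0.28 (SE), and it was -0.99 without shNUF2 replicate 2 and -0.41 without shNUF2 replicate 1. OBSL1, a cytoskeletal adaptor gene on the other strand, overlaps INHA by 2698 bases and was covered by 397, 420 and 548 reads in the shNC libraries and by 157, 173 and 139 in the shNUF2 libraries, a log2 fold change of -1.34 ± 0.12 (SE, adjusted p = 1.43e-10, edgeR). The strand setting of the counting was not given in the sources used here, so that reads of INHA and OBSL1 cannot be told apart with certainty.

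The 2 activin binders differed in opposite directions. FST, follistatin (ENSG00000134363, chr5:53480626-53487134, plus strand), was covered by 48, 54 and 76 reads in the shNC libraries and by 147, 142 and 135 in the shNUF2 libraries. The groups did not overlap, and the third library with shNC was the highest of its group. FPKM of FST was 1.37 ± 0.221 with shNC and 3.68 ± 0.400 with shNUF2 (SD, n = 3), a CPM ratio of 2.76 and a log2 fold change of 1.45 ± 0.18 (SE). FSTL3, the follistatin relative (ENSG00000070404, chr19:676392-683392, plus strand), was covered by 3653, 3927 and 4659 reads in the shNC libraries and by 1966, 1898 and 2221 in the shNUF2 libraries. All libraries with shNUF2 were below all with shNC. FPKM of FSTL3 was 86.1 ± 4.02 with shNC and 47.7 ± 0.599 with shNUF2 (SD, n = 3), which made it 1.76 times higher in CPM with shNC, at a log2 fold change of -0.82 ± 0.05 (SE).

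Of the receptors, ACVR1B differed most. ACVR1B, the type I receptor that carries the activin signal to SMAD2 and SMAD3 (ENSG00000135503, chr12:51951699-51997078, plus strand), was covered by 744, 844 and 895 reads in the shNC libraries and by 1195, 1141 and 1284 in the shNUF2 libraries. Its groups did not overlap, and its FPKM was 9.37 ± 0.108 with shNC and 15.2 ± 0.281 with shNUF2 (SD, n = 3). The log2 fold change of ACVR1B was 0.74 ± 0.05 (SE). ACVR1, a type I receptor better known from BMP signaling (ENSG00000115170, chr2:157736444-157876330, minus strand), was covered by 153, 199 and 178 reads in the shNC libraries and by 154, 161 and 200 in the shNUF2 libraries, and the groups overlapped. FPKM of ACVR1 was 2.53 ± 0.263 and 2.73 ± 0.221 (SD, n = 3), at a log2 fold change of 0.15 ± 0.13 (SE), which ran from 0.09 to 0.23 when single libraries were left out.

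Both type II receptors, which bind the ligand first, showed overlapping groups. ACVR2A (ENSG00000121989, chr2:147844517-147930826, plus strand), the gene with the seed site shown above, was covered by 88, 105 and 131 reads in the shNC libraries and by 96, 100 and 115 in the shNUF2 libraries, at a log2 fold change of 0.14 ± 0.16 (SE), which ran from 0.07 to 0.22 when single libraries were left out. ACVR2B (ENSG00000114739, chr3:38453890-38493142, plus strand) was covered by 408, 478 and 458 reads in the shNC libraries and by 374, 297 and 349 in the shNUF2 libraries, at a log2 fold change of -0.21 ± 0.09 (SE). In FPKM the first library with shNUF2 (1.73) lay within the range of shNC for ACVR2B and the others (1.45 and 1.46) below it. ACVR2A overlaps ORC4, a subunit of the replication origin complex, by 430 bases on the other strand, and ORC4 had 442 to 545 reads with shNC and 437 to 517 with shNUF2.

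BAMBI, a receptor-like protein without the kinase domain that competes with type I receptors (ENSG00000095739, chr10:28677510-28682932, plus strand), was covered by 142, 161 and 204 reads in the shNC libraries and by 181, 145 and 129 in the shNUF2 libraries. The groups overlapped, and BAMBI had a spread of 22.0% of the mean with shNUF2, where counting error alone gives 8.12%. Its log2 fold change was 0.05 ± 0.15 (SE), and its sign turned in 3 of 15 other processings, with a range of -0.12 to 0.20.

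**Figure D1:**
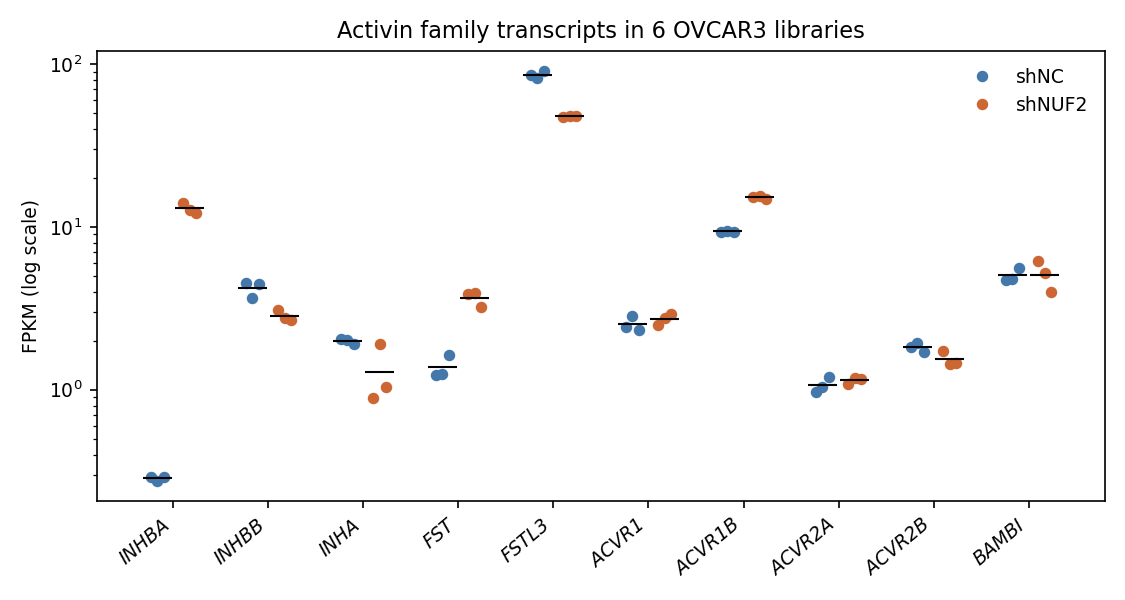
FPKM of the 10 genes on a log axis, with 1 point for each of the 3 shNC and 3 shNUF2 libraries and a black line at the group mean. INHBA runs from 0.286 to 12.99 FPKM between the group means, while the points of ACVR1, ACVR2A and BAMBI mix.

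All 10 genes passed the filter on low counts. Past a log2 fold change of 1 with an unadjusted p under 0.05 were INHBA and FST, that is 2 of 10 genes, where 9.41% of all genes tested passed in the higher direction. None (0 of 10) passed below -1, where 4.16% of all genes did. With an adjusted p under 0.05, 3 genes were higher with shNUF2 (INHBA, FST and ACVR1B) and 2 lower (INHBB and FSTL3), beside 33.9% and 33.8% of all genes tested. The groups did not overlap in CPM for the same 5 genes, 3 with shNUF2 above and 2 with shNUF2 below, beside 35.2% and 35.4% of all genes. The median log2 fold change of the 10 genes was 0.09, and that of all genes -0.01. Since the genes were chosen on this contrast, nothing is read from these counts. At the threshold of 1, FST with 1.45 was the nearest gene inside, and FSTL3 with -0.82 and ACVR1B with 0.74 were the nearest outside.

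**Figure D2:**
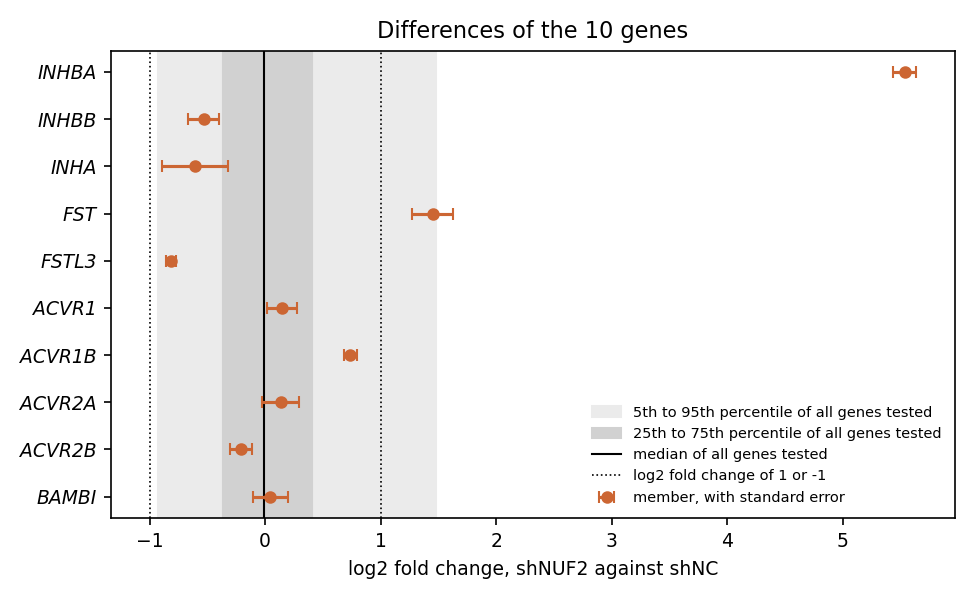
Log2 fold change of each of the 10 genes, shNUF2 against shNC, with standard errors, over bands that hold the middle of all 12874 genes tested. INHBA at 5.54 and FST at 1.45 lie past the dotted line at 1, and the 25th to 75th percentile of all genes runs from -0.36 to 0.41.

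Among the subunit transcripts, the leading gene changed from INHBB to INHBA. Of the summed FPKM of INHBA, INHBB and INHA, INHBA made up 4.25% to 4.66% in the libraries with shNC and 73.1% to 78.0% in those with shNUF2. INHBB made up 64.7% ± 3.07 with shNC and 16.5% ± 0.658 with shNUF2, and INHA 30.8% ± 2.88 and 7.51% ± 3.17 (SD, n = 3). With shNC, the level of INHBB was 14.7 ± 1.32 times that of INHBA, and with shNUF2 the level of INHBA was 4.59 ± 0.0316 times that of INHBB. Counting error alone gives 16.4% for INHBA with shNC and 8.87% for INHBB with shNUF2, so the SDs of these ratios understate the uncertainty. The summed level of the beta subunits INHBA and INHBB was 4.49 ± 0.499 FPKM with shNC and 15.8 ± 1.15 FPKM with shNUF2. These are transcript levels and say nothing on which dimers were made.

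The summed level of the binders FST and FSTL3 was 87.4 ± 4.22 FPKM with shNC and 51.3 ± 0.513 FPKM with shNUF2. This was 18.0 to 21.4 times the summed beta subunits in the libraries with shNC and 2.97 to 3.45 times in those with shNUF2. Binder transcripts thus remained above subunit transcripts in FPKM in all 6 libraries. The size of these ratios rests on the deposited lengths, 3033 bases for FSTL3 and 8284 for INHBA. In CPM with shNUF2 the margin was smaller, with FSTL3 at 147 and FST at 10.3 beside INHBA at 109 and INHBB at 9.19. FSTL3 held most of the binder level in both groups, at 63.6 ± 7.04 times FST with shNC and 13.1 ± 1.61 times with shNUF2. The level of FSTL3 was 301 ± 8.76 times that of INHBA with shNC and 3.68 ± 0.302 times with shNUF2. Counting error alone gives 16.4% for INHBA with shNC, so the SD with shNC understates the uncertainty.

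**Figure D3:**
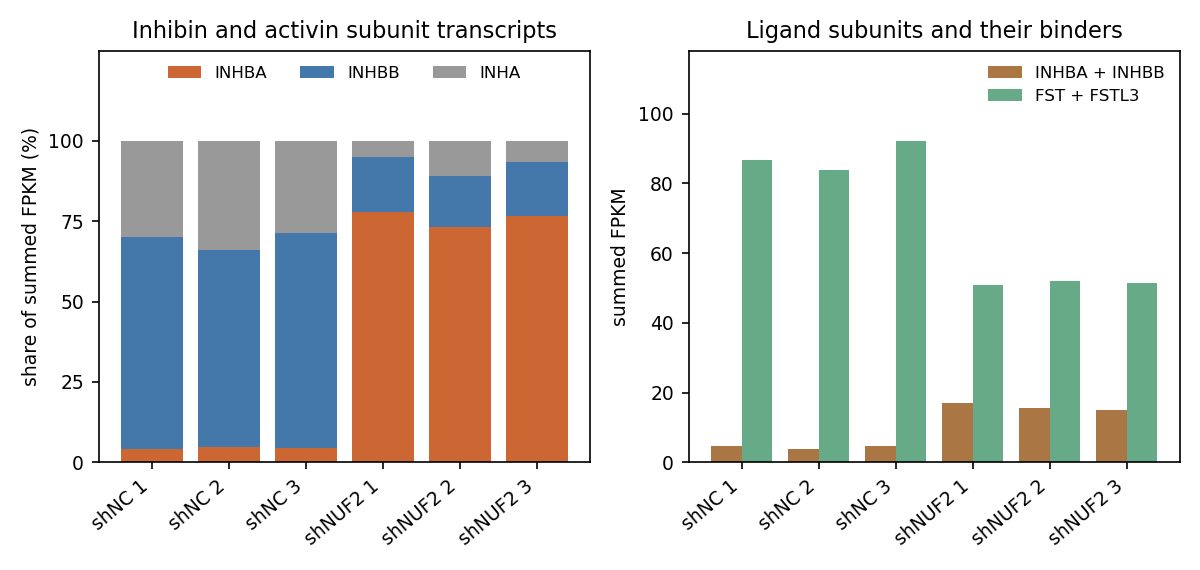
Left, the share of INHBA, INHBB and INHA in their summed FPKM (%) for each library. Right, the summed FPKM of INHBA and INHBB beside that of FST and FSTL3 for each library. INHBA takes 4.25% to 4.66% with shNC and 73.1% to 78.0% with shNUF2, and the binder bars stand above the subunit bars throughout.

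Receptor transcripts showed a smaller shift. The type I receptors ACVR1 and ACVR1B summed to 11.9 ± 0.371 FPKM with shNC and 17.9 ± 0.220 FPKM with shNUF2, and the type II receptors ACVR2A and ACVR2B to 2.90 ± 0.0847 and 2.69 ± 0.0992 FPKM (SD, n = 3). The 2 groups nearly touch in the type II sum, where the first library with shNUF2 had 2.805 FPKM and the lowest with shNC 2.807 FPKM. ACVR1B exceeded ACVR1 in every library, by 3.36 to 3.98 times with shNC and 5.08 to 6.14 times with shNUF2.

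With shNC the order of the FPKM levels was FSTL3 (86.1), ACVR1B (9.37), BAMBI (5.04), INHBB (4.20), ACVR1 (2.53), INHA (1.99), ACVR2B (1.83), FST (1.37), ACVR2A (1.07) and INHBA (0.286). Only INHA and ACVR2B were neighbours whose ranges over the 3 libraries overlapped. With shNUF2 the order was FSTL3 (47.7), ACVR1B (15.2), INHBA (12.99), BAMBI (5.10), FST (3.68), INHBB (2.83), ACVR1 (2.73), ACVR2B (1.54), INHA (1.28) and ACVR2A (1.15). There the ranges of INHBB and ACVR1 overlapped, and the range of INHA overlapped those of ACVR2B and ACVR2A, which did not overlap each other. INHBA thus stood last of the 10 genes with shNC and at place 3 with shNUF2 in FPKM, while FSTL3 and ACVR1B kept the first places. These places rest on the deposited gene lengths. In CPM with shNUF2, INHBA (109) was above ACVR1B (87.3). In CPM with shNC, ACVR2B (28.4) was above BAMBI (10.6), and INHBA (2.34) was again last. By FPKM, FSTL3 was the 340th most abundant of all genes tested with shNC, and INHBA the 12010th.

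The 5 genes outside the family whose 6 centred log2 CPM values lay nearest to those of INHBA, by Euclidean distance over the 6 libraries, were MMP1 (distance 0.507), IL7R (0.784), IL13RA2 (0.844), CXCL8 (0.857) and CCL20 (1.01). MMP1, an interstitial collagenase, was covered by 11, 13 and 8 reads in the shNC libraries and by 560, 439 and 562 in the shNUF2 libraries. CXCL8, a chemokine that draws neutrophils, was covered by 96, 98 and 91 reads in the shNC libraries and by 5939, 5224 and 5380 in the shNUF2 libraries. IL7R and IL13RA2 are cytokine receptors and CCL20 is a chemokine, with log2 fold changes of 4.81, 5.67 and 5.08. The distance is dominated by the difference between the 2 groups, which all of these genes share by the way they were selected.

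A list of 47 further genes around activin signaling was examined next, of which 33 passed the filter on low counts and were tested. In edgeR's test 13 of the 33 had a higher level with shNUF2 at an adjusted p under 0.05, 15 a lower level and 5 neither (INHBC, GDF11, SKI, SMURF2 and ID1), and the median log2 fold change was -0.01, as for all genes tested. The shares are to be read beside the 33.9% and 33.8% of all genes tested. Past the fold threshold were 4 genes, SMAD3 and CCN2 higher, INHBE and PCSK6 lower, that is 2 of 33 in each direction beside 9.41% and 4.16% of all genes tested. The 14 genes without a test had at most 18 reads in any library and included the ligands MSTN, NODAL, GDF1 and GDF3, the type I receptor ACVR1C, the co-receptors TDGF1 and CFC1, the antagonists LEFTY1, LEFTY2, CER1 and WFIKKN2, the convertase PCSK5, the SMAD partner FOXH1 and the BMP receptor BMPR1B. Reads of GDF1, GDF3, TDGF1, CFC1 and CER1 were 0 in all 6 libraries.

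Of the 3 tested other ligands, INHBE fell. INHBE, the beta E subunit gene (ENSG00000139269, chr12:57452323-57459280, plus strand), was covered by 141, 165 and 143 reads in the shNC libraries and by 22, 27 and 33 in the shNUF2 libraries, a log2 fold change of -2.26 ± 0.20 (SE, adjusted p = 2.01e-10, edgeR). Its neighbour INHBC had 21, 17 and 16 reads against 32, 7 and 8, with its first library with shNUF2 far above the others. The log2 fold change of INHBC was -0.01, and it was -1.09 without that library (adjusted p = 0.067, edgeR). GDF11 had a log2 fold change of -0.13 (adjusted p = 0.237, edgeR). TGFBR3, the co-receptor betaglycan that lets inhibin compete for ACVR2A and ACVR2B, fell by 0.73 on the log2 scale (SE 0.11). WFIKKN1, an antagonist of GDF8 and GDF11, rose by 0.97 (SE 0.10).

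Precursors of these ligands are cut by prohormone convertases, and all 3 that were tested fell. PCSK6 was covered by 1484, 1399 and 1684 reads in the shNC libraries and by 692, 521 and 759 in the shNUF2 libraries, a log2 fold change of -1.03 ± 0.08 (SE, adjusted p = 3.41e-12, edgeR), which did not reach the fold threshold without shNC replicate 1, without shNUF2 replicate 2 or with limma on log2(FPKM + 1), where it was -0.81. FURIN fell by 0.27 (SE 0.05) and PCSK7 by 0.30 (SE 0.10) on the log2 scale, the latter a call that held in 14 of 15 other processings. FURIN kept the highest level of them, at 41.4 ± 1.67 FPKM with shNC and 33.5 ± 0.327 FPKM with shNUF2 (SD, n = 3).

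The receptor-activated SMADs of the activin branch moved apart. SMAD3 was covered by 618, 623 and 702 reads in the shNC libraries and by 1576, 1362 and 1541 in the shNUF2 libraries, a log2 fold change of 1.40 ± 0.06 (SE, adjusted p = 1.13e-16, edgeR). SMAD2 was covered by 3480, 4147 and 4431 reads in the shNC libraries and by 2303, 1897 and 2378 in the shNUF2 libraries, a log2 fold change of -0.68 ± 0.05 (SE, adjusted p = 4.42e-12, edgeR). In FPKM, SMAD2 stood at 7.06 ± 0.255 and SMAD3 at 4.46 ± 0.222 with shNC, and at 4.29 ± 0.297 and 11.4 ± 0.729 with shNUF2 (SD, n = 3), so the order of the pair turned on this scale. It rests on the deposited lengths of 36426 and 9330 bases, and in CPM SMAD2 stayed above SMAD3, at 254 and 41.1 with shNC and 158 and 108 with shNUF2. ZFYVE9, which anchors these SMADs at the receptor, fell by 0.61 (SE 0.09). The common partner SMAD4 fell by 0.17 (SE 0.07, adjusted p = 0.0392, edgeR), a call that held in 8 of 15 other processings and was lost without shNUF2 replicate 2 (-0.10), shNC replicate 2 (-0.15) or shNC replicate 3 (-0.17).

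Of the 8 inhibitory SMADs and repressors, 3 rose, 3 fell and 2 did neither. SMAD7, which blocks type I receptors, rose by 0.51 (SE 0.08) and the ubiquitin ligase SMURF1 by 0.79 (SE 0.08), while the BMP-leaning inhibitor SMAD6 fell by 0.63 (SE 0.07) and the repressor SKIL by 0.17 (SE 0.04). PMEPA1 rose by 0.18 and TGIF1 fell by 0.12, calls that held in 7 and 9 of 15 other processings and were each lost on leaving out any of 4 single libraries, at 0.15 to 0.18 for PMEPA1 and -0.12 to -0.09 for TGIF1.

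All 5 genes listed as SMAD2 and SMAD3 targets rose at an adjusted p under 0.05 (edgeR), beside 33.9% of all genes tested. Their median log2 fold change was 0.87 beside -0.01 for all genes tested. The count covers only the genes given this label, and the 8 inhibitory SMADs and repressors, listed apart, were split with 3 higher and 3 lower. CCN2, a matricellular protein, was covered by 188, 212 and 216 reads in the shNC libraries and by 380, 390 and 443 in the shNUF2 libraries, a log2 fold change of 1.17 ± 0.10 (SE, adjusted p = 4.10e-11, edgeR). The cyclin-dependent kinase inhibitors CDKN2B and CDKN1A rose by 0.89 (SE 0.06) and 0.65 (SE 0.05). LTBP2, a matrix protein, rose by 0.87 (SE 0.23) from 38 to 72 reads with shNC to 75 to 89 reads with shNUF2, and TGFBI by 0.31 (SE 0.05). All 5 calls held in all 15 other processings. Several of these genes also answer to other regulators, CDKN1A to p53 and CCN2 to YAP among them, and the list was chosen with results of these libraries known, so its direction is not independent evidence.

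On the BMP side, which shares ACVR1, ACVR2A and ACVR2B with activin, 3 of 8 tested genes rose, 4 fell and 1 did neither. SMAD1 fell by 0.89 (SE 0.12), ID3 by 0.75 (SE 0.06), the type I receptor BMPR1A by 0.54 (SE 0.09) and SMAD5 by 0.16 (SE 0.05). SMAD9 rose by 0.62 (SE 0.26), ID2 by 0.56 (SE 0.20) and the type II receptor BMPR2 by 0.19 (SE 0.08), calls that held in 8, 12 and 7 of 15 other processings. The SMAD9 value rested largely on 1 library, which had 76 reads where the other shNUF2 libraries had 42 and 41 and the shNC libraries 37 to 41. It was 0.34 (adjusted p = 0.314, edgeR) without that library, shNUF2 replicate 3, and the call was also lost without shNC replicate 2 (0.65) or shNC replicate 3 (0.55). The BMPR2 value was 0.11 without shNUF2 replicate 3, 0.12 without shNC replicate 1 and 0.20 without shNC replicate 2, and the ID2 value was 0.44 to 0.50 without shNUF2 replicate 2, shNC replicate 2 or shNC replicate 3, each time with the call lost. ID1, a direct BMP target, stood at 544 ± 24.5 FPKM with shNC and 534 ± 18.2 FPKM with shNUF2 (SD, n = 3), at a log2 fold change of 0.01 ± 0.04 (SE, adjusted p = 0.861, edgeR).

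**Figure D4:**
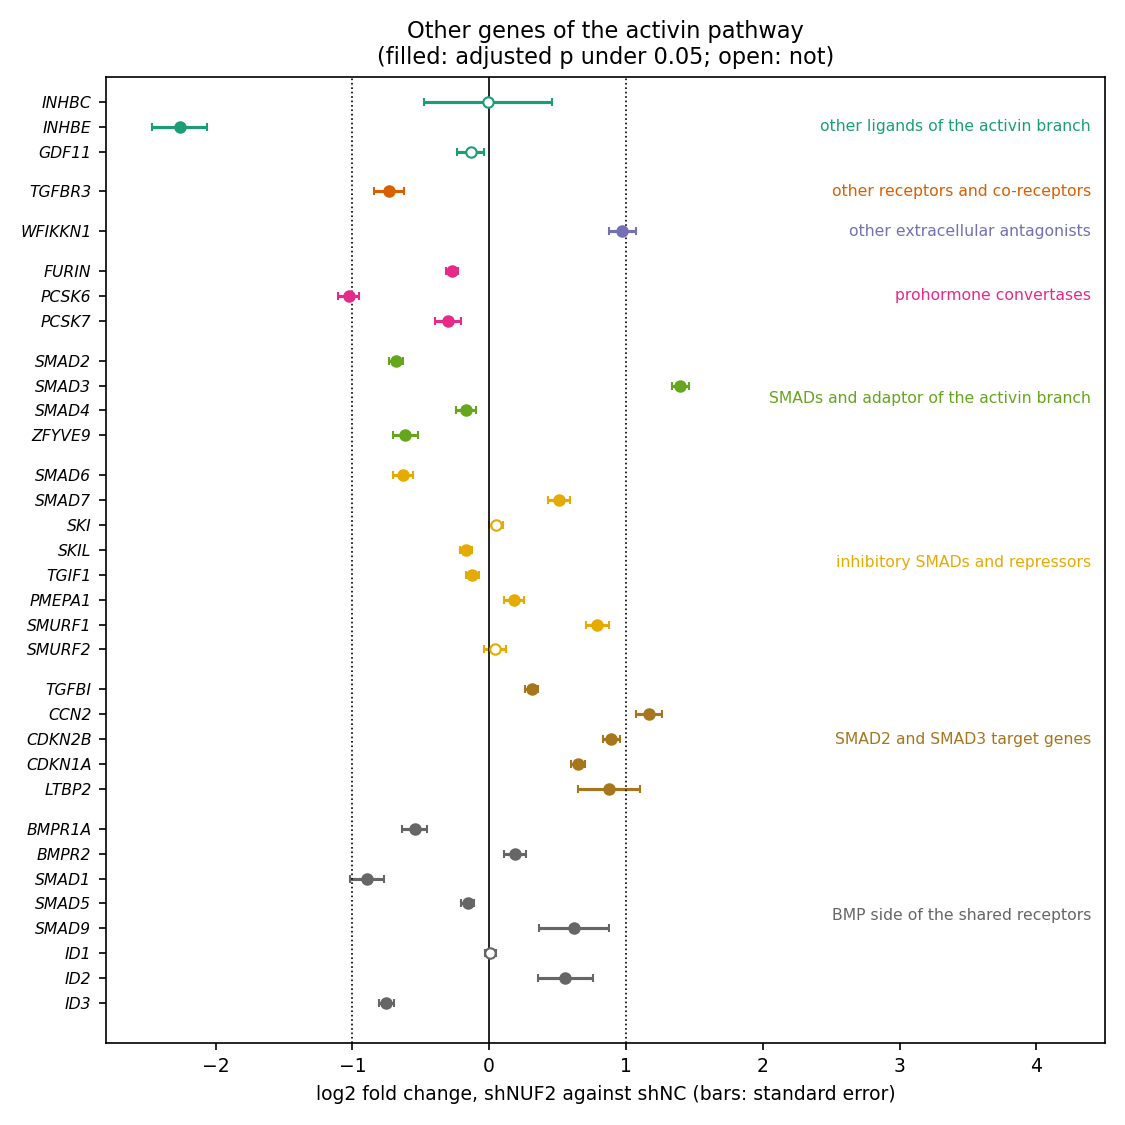
Log2 fold change, shNUF2 against shNC, with standard errors for the 33 tested genes of the activin pathway list, grouped by role. The 5 SMAD2 and SMAD3 target genes lie from 0.31 to 1.17, the 3 convertases from -1.03 to -0.27, and SMAD3 (1.40) and SMAD2 (-0.68) lie on opposite sides of 0.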

How the data were processed

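RNA-seq libraries of OVCAR3 cells (3 shNC, 3 shNUF2) were prepared with a stranded mRNA kit. The authors deposited read counts per gene without normalization. Cutadapt, HISAT, HTSeq and the build GRCh38.p13 are named in the submitters' processing notes, while tool versions and the strand setting of the counting were not given in the sources used here. The authors also deposited FPKM values, which equal the count divided by gene length and by total count, in the usual scale, and these were used to compare levels between genes, for sums and shares over genes, and in the limma alternatives. No columns of comparisons were used.

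Libraries were grouped by their treatment labels. Counts were filtered by filterByExpr, scaled by TMM and compared with edgeR 4.0.16 in R 4.3.3 (quasi-likelihood test, all 6 libraries, no covariate, Benjamini-Hochberg adjustment over the 12874 genes tested). SE is the log2 fold change divided by the root of F. CPM values are TMM-scaled. The fold threshold was a log2 fold change beyond 1 with an unadjusted p under 0.05. The common biological coefficient of variation was 4.93%. The test was tried on simulated counts, drawn with the same biological variation for every gene, near this common value. There 200 of 200 genes changed 4-fold (all with a mean over 50 reads) among 12874 were recovered with 3 false calls. Smaller changes, lower counts and genes with a larger spread were not simulated. No pair of libraries within a group agreed within sampling noise (chi-square per degree of freedom 2.64 to 4.38).

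The 10 genes, the pathway and marker lists and the tests were chosen with earlier results of these data known. All 10 genes and any tested pathway gene could be named, always those past the fold threshold, with the 5 genes nearest to INHBA and the marker genes. OBSL1 and ORC4 were named for overlapping a member.

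Alternatives were DESeq2 size factors, upper quartile and library totals as scaling, DESeq2 1.42.0 with its Wald test, no filter or at least 1 CPM in every library, a replicate block, limma 3.58.1 on log2(FPKM + 1) and log2(FPKM + 0.1), and each library left out in turn. Target, seed and overlap searches used GENCODE release 29 on GRCh38, and promoter windows RefSeq on GRCh38.p14. One gene of the pathway list is not reported here and was left out of its counts. Proteins, tissues and other cell lines were not analysed here.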

Additional observations from a re-analysis of the deposited data

How the results depend on the processing

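A total of 15 alternatives were tried. No direction reversed among the counts, the median of the 10 genes and NUF2. The number of the 10 genes past the fold threshold in the higher direction was 2 in every alternative but limma on log2(FPKM + 1), which gave 1 because FST had 0.98 there, a scale that shrinks low levels. On that scale 430 genes of the whole table were past the threshold higher, 206 lower, and 1 pathway gene lower. With at least 1 CPM in every library, which drops genes low in either group, 756 genes of the whole table were higher. Leaving out one library in turn gave 2 to 4 pathway genes higher (4 without shNC replicate 1, without shNC replicate 2 or without shNUF2 replicate 1) and 1 to 3 lower (1 without shNC replicate 1 or without shNUF2 replicate 2). These changes came from WFIKKN1, LTBP2, INHBC, PCSK6 and the barely read BMPR1B and FOXH1. The log2 fold change of INHBA ran from 5.47 to 5.58 without limma and was 3.44 at its lowest with limma on log2(FPKM + 1). No gene of the 10 but BAMBI changed sign. The number of the 10 with an adjusted p under 0.05 was 5 to 7, the additions being INHA and ACVR2B. At 41 reads or fewer per library, INHBA with shNC and INHA with shNUF2 had the largest counting error among the 10. The replicate numbers did not pair the libraries (correlations of deviations 0.03, 0.01 and -0.04). A replicate block gave INHBA 5.53, kept INHBA and FST as the 2 genes past the threshold and gave 12 pathway genes higher and 15 lower by adjusted p.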
